A study of Drosophila melanogaster with 9 samples.

Results

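Small RNAs of ovaries in which the BX2 piRNA cluster is inactive (BX2OFF) were compared between flies raised for 1 generation at 29°C and flies kept at 25°C. The libraries were chosen by their labels, which give genotype, temperature and absence of the reporter, and they are 6 of the 9 samples of the series, 3 at each temperature. The methods give 20 pairs of dissected ovaries per genotype, so the RNA is that of pooled females. In the methods, heat treatment means that eggs laid at 25°C developed into adults at 29°C. The 25°C group had the same genotype and was raised at 25°C. Both groups carried BX2, which consists of 7 P(lacW) transgenes in tandem within an intron of AGO1, in a w1118 background, and neither carried the euchromatic reporter P(TARGET). The stock is kept over a Cy balancer, since BX2 homozygotes are rare and sterile. The labels do not say that libraries of 1 temperature came from separate cultures, so that every p-value below measures only the spread between these libraries, which may be technical. The other 3 samples of the series, 1 library each of BX2OFF with the reporter, of heat-activated BX2theta with the reporter and of maternally activated BX2* without it, are used here only to set the positions of the reads beside theirs.

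In the Drosophila germline, piRNAs are small RNAs loaded on PIWI proteins that guide the silencing of transposons. They are cut from long transcripts of piRNA clusters, and clusters such as BX2 that are read from both strands give sense and antisense piRNAs. In the ping-pong cycle, a piRNA guides the cut of a complementary transcript opposite its own positions 10 and 11, so that sense and antisense piRNAs made this way overlap by 10 nt at their 5′ ends. An inactive cluster has the same DNA as an active one and is transcribed, but does not silence. The tables used here hold reads of the transgene alone, so the ovary label could not be checked against marker genes.

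Between 271 and 438 reads of 23–29 nt matched P(lacW) in each library, out of 26932299 to 36450841 reads that matched the genome. Undoing the factor that each library carries in the deposited tables returned whole reads for 100% of the entries. Levels are given as reads per 1000000 genome-matched reads (rpm). At 29°C the level of 23–29 nt reads on both strands was 9.37, 12.0 and 10.1 rpm, against 10.2, 10.2 and 11.9 rpm at 25°C. The ranges of the groups overlap, with the highest and the lowest library both at 29°C. The mean was 10.5 ± 1.37 rpm at 29°C, against 10.7 ± 0.967 rpm at 25°C (SD, n = 3 each), a difference of -0.26 rpm that was smaller than the spread between libraries (exact two-sided permutation test, p = 0.7). With 3 libraries against 3 this test cannot give a p below 0.1. A library without a single read would have allowed up to 3 reads, or 0.0823 to 0.111 rpm at these depths, so the transgene reads stood above that limit in all 6 libraries.

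On the sense strand, the strand of P(lacW) as its sequence is written, 113, 184 and 93 reads were found at 29°C, against 139, 170 and 171 at 25°C. The sense level averaged 4.03 ± 0.884 rpm at 29°C, against 4.998 ± 0.672 rpm at 25°C (SD, n = 3 each; exact permutation test, p = 0.2). On the antisense strand there were 182, 254 and 178 reads at 29°C, against 197, 155 and 201 at 25°C. The antisense level averaged 6.45 ± 0.608 rpm at 29°C, against 5.75 ± 0.809 rpm at 25°C (SD, n = 3 each; exact permutation test, p = 0.4). On each strand the groups overlapped, as the plot of levels by strand shows, and neither difference passed the test.

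**Figure D1:**
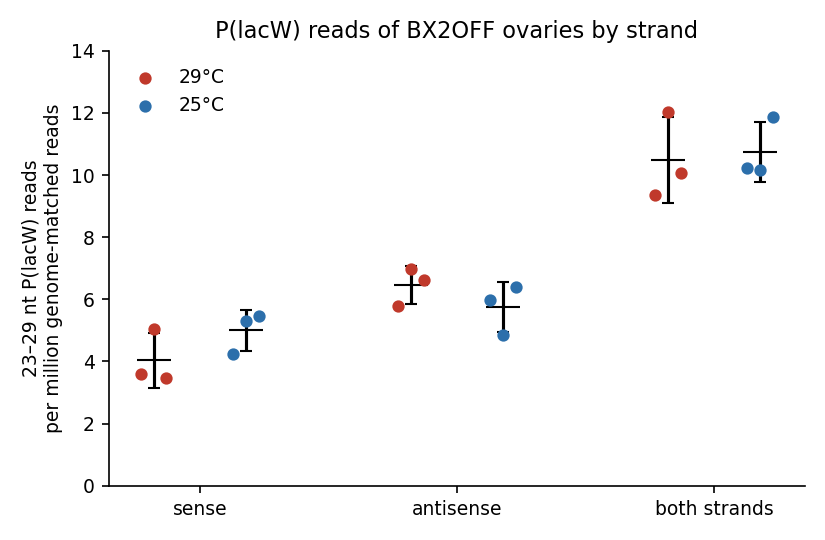
Level of 23–29 nt P(lacW) reads in BX2OFF ovaries, in reads per 1000000 genome-matched reads, for the sense strand, the antisense strand and both. Points are libraries (3 at 29°C, left, and 3 at 25°C, right, of each pair), and bars are the mean and SD. The sense mean is lower at 29°C (4.03 against 4.998 rpm) and the antisense mean higher (6.45 against 5.75 rpm), with overlapping points on both strands.

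The antisense strand held more reads than the sense strand in 5 of the 6 libraries. Its share at 29°C was 61.7% (95% Wilson interval 56.0 to 67.1), 58.0% (53.3 to 62.5) and 65.7% (59.8 to 71.1). At 25°C it was 58.6% (53.3 to 63.8), 47.7% (42.3 to 53.1) and 54.0% (49.0 to 59.0). The intervals cover counting error only. The mean share was 61.8 ± 3.85% at 29°C, against 53.5 ± 5.5% at 25°C (SD, n = 3 each), and the difference of 8.34 percentage points did not pass (exact permutation test, p = 0.2). The groups overlapped through 1 library of 25°C, whose share lay above the lowest of 29°C.

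The reads lay on few positions. Over the 6 libraries, 2037 reads had their 5′ ends on 434 positions, 181 sense and 253 antisense, of the 21380 that both strands offer up to 10690, the last coordinate in the tables. The study's text gives a longer P(lacW), so the numbering may stop before the end of the transgene. Positions with reads numbered 68, 99 and 77 at 29°C, against 99, 97 and 100 at 25°C. The means were 81.3 ± 15.9 at 29°C, against 98.7 ± 1.53 at 25°C (SD, n = 3 each; exact permutation test, p = 0.3), and the library with 99 positions at 29°C kept the groups from separating. When each library was thinned to 271 reads, the smallest number in any of them, the expected numbers of positions were 78.6 ± 12.0 at 29°C, against 94.3 ± 0.768 at 25°C (SD, n = 3 each; exact permutation test, p = 0.1, the smallest that it can give). This thinning was chosen after the data had been seen.

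**Figure D2:**
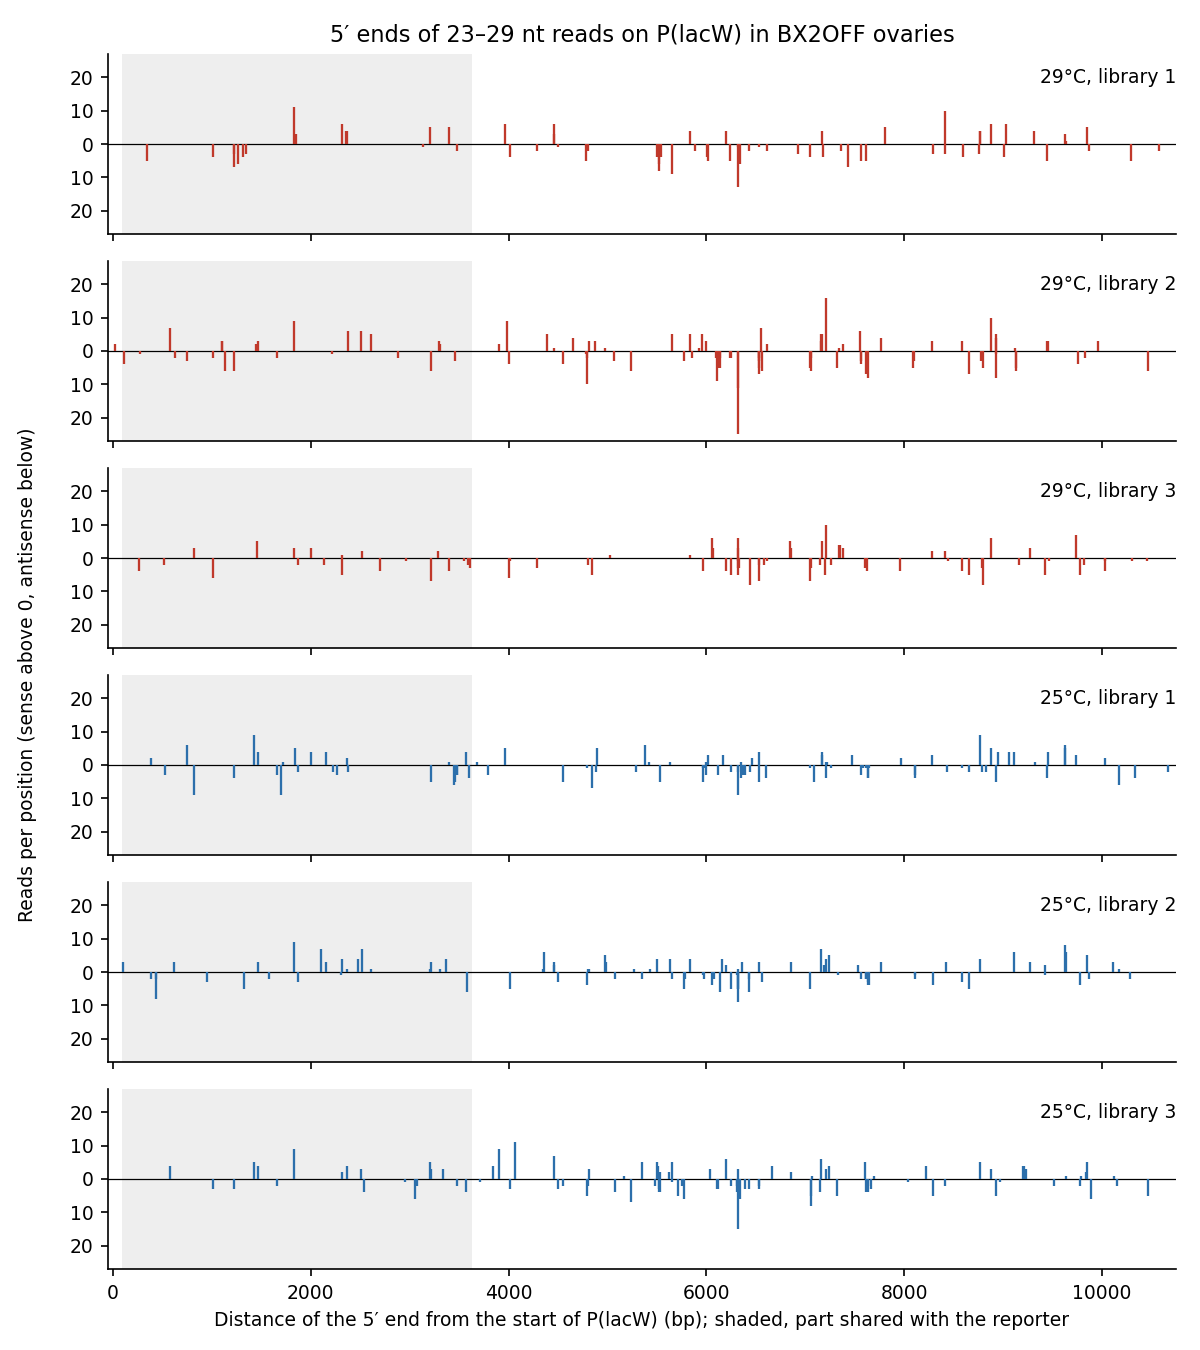
Reads per 5′ position along P(lacW) in each BX2OFF library, 29°C in the upper 3 panels and 25°C in the lower 3. The x axis is the distance from the start of P(lacW) in bp, the y axis the number of 23–29 nt reads at a position (sense above 0, antisense below), and shading marks the part shared with the reporter. Most lines stand at a different place in each library, while antisense position 6323 has reads in all 6.

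Along the transgene, reads were found on both strands in 19 to 22 of the 22 combinations of strand and 1000 bp bin in every library. The antisense bin from 6001 to 7000 held the most, with 42, 86 and 41 reads at 29°C against 37, 48 and 54 at 25°C. It averaged 1.74 ± 0.546 rpm at 29°C, against 1.45 ± 0.302 rpm at 25°C (SD, n = 3 each), and its libraries overlapped. The next antisense bin, from 7001 to 8000, had 27, 40 and 30 reads at 29°C against 25, 23 and 35 at 25°C. The sense bin from 7001 to 8000, the fullest of that strand at 29°C, had 9, 42 and 26 reads at 29°C against 14, 23 and 20 at 25°C. In the last bin of the tables, from 10001 to 10690, no sense read was found in any library at 29°C, against 2, 4 and 1 at 25°C.

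None of the 22 bins passed the test between the temperatures in limma on log2(rpm + 0.1) (0% called at an adjusted p under 0.05, lowest adjusted p = 0.66, 0 bins with an unadjusted p under 0.05). In 3 of the 22 bins, or 13.6%, the libraries of the groups did not overlap. Full separation of 3 libraries from 3 has an exact permutation p of 0.1, so this share of the bins carries no weight. All of them lie from 9001 onwards in the numbering of the tables. In the sense bin from 9001 to 10000 there were 19, 10 and 10 reads at 29°C against 27, 30 and 20 at 25°C, with a log2 fold change of -0.84 ± 0.42 (SE). In the antisense bin of the same stretch there were 11, 17 and 15 reads at 29°C against 4, 7 and 10 at 25°C, a log2 fold change of 0.83 ± 0.42 (SE). The third was the last sense bin, named above, where the counts of 2 and 1 at 25°C lie below the 3 reads that a count of 0 allows. The strands of the stretch from 9001 to 10000 thus stood in opposite directions, and neither passed limma (adjusted p = 0.66 each).

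The part of P(lacW) that is also in the reporter, with P-element and lacZ sequence, was taken to begin at position 87 and the rest at position 3634. That this numbering is that of the tables was assumed. The shared part held 22.5 ± 2.46% of the reads at 29°C, against 25.4 ± 6.41% at 25°C (SD, n = 3 each; exact permutation test, p = 0.5).

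Few positions were found again in a second library. Of the 434 positions, 362 (83.4%) had reads in 1 library only, and they held 60.9% of all reads. A further 51 were found in 2 libraries, 13 in 3, 4 in 4, 3 in 5 and 1 in all 6. Any pair of libraries at 29°C shared 6 to 8 positions (median 7), any pair at 25°C 8 to 17 (median 10), and a library of 29°C shared 8 to 15 (median 11) with one of 25°C. The medians within a temperature were thus no higher than the median between temperatures. Of the 72 positions found more than once, 58 had reads at both temperatures, 1 at 29°C alone and 13 at 25°C alone. Over all 434 positions, 58 had reads at both temperatures, 169 at 29°C alone and 207 at 25°C alone. The libraries of 25°C also held more positions on average (98.7 against 81.3), and the 13 against 1 was not tested.

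The position found in all 6 libraries was antisense 6323, with 13, 25 and 3 reads at 29°C against 9, 9 and 15 at 25°C. It was the most abundant antisense position in 5 libraries, in 1 of them together with antisense 821 and 1700. Its highest and its lowest number both came from 29°C, and the log2 fold change was 0.02 ± 0.63 (SE). The limma fit gave this same SE to every position tested, so it does not measure the spread of antisense 6323 alone. Without it, the antisense level was 6.05 ± 0.599 rpm at 29°C, against 5.40 ± 0.735 rpm at 25°C (SD, n = 3 each), so that the order of the means did not rest on it.

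The positions found in 5 libraries were sense 1835, sense 7215 and antisense 7620. Sense 1835 had 11, 9 and 3 reads at 29°C against 0, 9 and 9 at 25°C, and was the most abundant sense position in 1 library of each temperature. Sense 7215 had 0, 16 and 10 reads at 29°C against 1, 4 and 3 at 25°C, and was the most abundant sense position in 2 libraries of 29°C. Antisense 7620 had 5, 7 and 0 reads at 29°C against 1, 2 and 4 at 25°C. For all 3 the groups overlapped. Sense 1835 lies in the part shared with the reporter, and the other recurring positions named so far lie outside it.

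Sense 8883 was the only position with reads in all libraries of 1 temperature and none of the other. It had 6, 10 and 6 reads at 29°C and 0 in each library at 25°C. Over the group, 3 reads are the limit that a count of 0 allows, while 22 reads were found at 29°C. Scaled to the depths, the 22 reads are 7.44 times that limit. This ratio leaves out the error of the 22 reads and counts stacked reads as separate molecules, so it is no lower bound. The fitted log2 fold change is no bound either, since it depends on the pseudocount: it was 1.71 ± 0.63 (SE), 0.30 with a pseudocount of 1 and 3.45 with scaling to miRNA. Here too the SE is the one that limma gave to all positions tested, not the spread of sense 8883 alone. Among the 32 positions with at least 10 reads in all, limma called none (0% at an adjusted p under 0.05, and 1 with an unadjusted p under 0.05, which was sense 8883, at an adjusted p of 0.246). It was also the only position of the 32 (3.12%) whose groups did not overlap. All its reads came from 29°C, so it met the limit of 10 reads through that group alone. Full separation of 3 libraries from 3 has an exact permutation p of 0.1, so 1 such position in 32 carries no weight. The call depends on settings: sense 8883 passed limma without the limit on reads, at an adjusted p of 0.0295 over 434 positions, and without 29°C library 1, at 0.0198. Over all its alternatives the adjusted p in limma lay between 0.0198 and 0.566. Reads nearby did occur at 25°C, since the positions from 8880 to 8883 together had 6, 10 and 6 reads at 29°C against 5, 0 and 3 at 25°C.

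Such near matches were common. Within a library, 6.0% to 18.2% of the positions had another position with reads on the same strand at most 2 nt away, and over all 6 libraries together 170 of the 434 (39.2%) had. Joining positions at most 2 nt apart, a step chosen after the data had been seen, left 333 sites, of which 97 (29.1%) were found in 2 or more libraries and held 61.3% of the reads. Of these 97 sites, 78 had reads at both temperatures, 5 at 29°C alone and 14 at 25°C alone. Over all 333 sites, 111 had reads at 29°C alone and 144 at 25°C alone. There were 19 sites in 4 or more libraries, and 3 of them were found in all 6. The largest ran from 6317 to 6324 on the antisense strand, with 14, 36 and 9 reads at 29°C against 11, 19 and 18 at 25°C. The antisense site from 7052 to 7055 had 4, 11 and 7 reads at 29°C against 1, 5 and 5 at 25°C. The sense site from 1835 to 1837 had 11, 9 and 3 reads at 29°C against 5, 9 and 9 at 25°C. Joining positions cannot lower the share of reads at places found again, and how far it would raise that share for other positions was not tested.

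**Figure D3:**
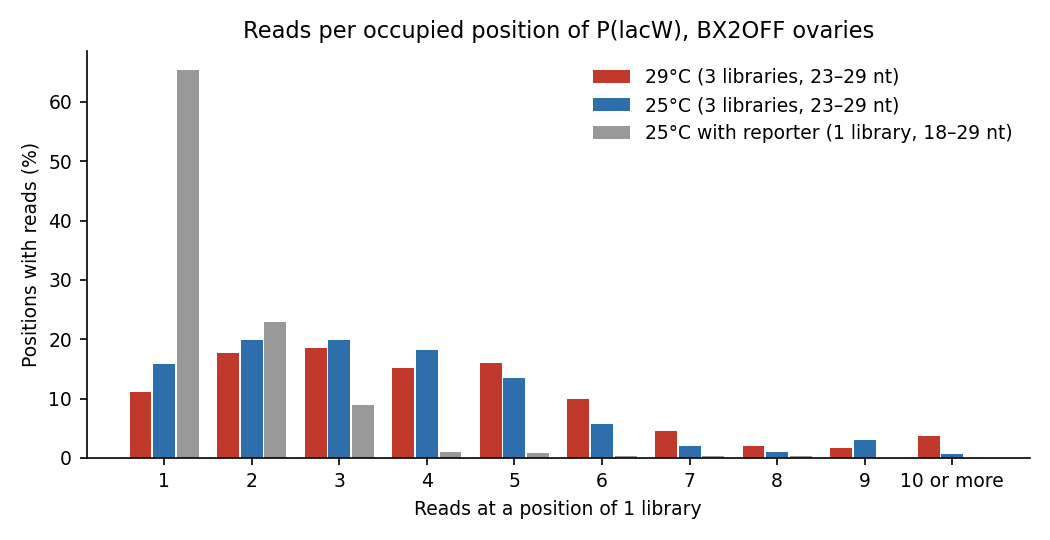
Share of the occupied positions of P(lacW) that hold 1, 2 and up to 10 or more reads in 1 library, for BX2OFF at 29°C (244 positions of 3 libraries), at 25°C (296 positions of 3 libraries) and with the reporter at 25°C (589 positions of 1 library of 18–29 nt reads). Positions with 3 reads are more frequent than positions with 1 read at both temperatures, whereas with the reporter 65.4% hold 1 read.

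Reads came in stacks. A position with reads held 4.34, 4.42 and 3.52 reads on average at 29°C, against 3.39, 3.35 and 3.72 at 25°C. The means were 4.09 ± 0.499 at 29°C, against 3.49 ± 0.202 at 25°C (SD, n = 3 each; exact permutation test, p = 0.2). A single read was the rarer case, at 27 of 244 positions (11.1%) at 29°C and at 47 of 296 (15.9%) at 25°C. Stacks of 4 or more reads numbered 129 at 29°C and 131 at 25°C. Of these 260 stacks, 154 (59.2%) had no read at that position in any other library. In the BX2OFF library with the reporter, which was made in the other experiment and tabulated for 18–29 nt reads, 902 reads lay on 589 positions and 385 of these held 1 read. That library also carries another mapping mark, given with the processing below, so its stacks may not compare directly. Reads without molecular identifiers cannot be told apart as molecules or PCR copies, and what made the stacks was not tested. A stack may count as fewer independent molecules than it has reads, so intervals from read numbers are too narrow if it does. With each position counted once, whatever its reads, the antisense share was 63.1 ± 6.56% at 29°C, against 54.3 ± 5.26% at 25°C (SD, n = 3 each; exact permutation test, p = 0.3).

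Most of the positions also had reads in the active lines, and fewer had in the BX2OFF library with the reporter. These libraries differ in depth on P(lacW), with 64503 reads in BX2theta, 37221 in BX2* and 902 in BX2OFF with the reporter. Their shares therefore do not compare directly, and the share of all positions with reads is given beside each. Of the 181 sense positions, 91.2% also had reads in BX2theta and 86.2% in BX2*, where 35.8% and 28.8% of all sense positions had reads. Of the 253 antisense positions, 86.6% had reads in BX2theta and 81.8% in BX2*, where 33.1% and 25.9% of all antisense positions had reads. Moved by 1 nt in either direction, 75.1% and 75.7% of the sense positions and 68.4% and 73.1% of the antisense positions coincided with BX2theta, and moved by 2 to 30 nt, 29.8% to 80.1% of the sense and 32.4% to 68.8% of the antisense positions did. On both strands the share was thus highest in place. In the BX2OFF library with the reporter, 21.5% of the sense and 20.6% of the antisense positions had reads, where 2.74% of all sense and 2.77% of all antisense positions had. All 21 positions found in 3 or more libraries had reads in both active lines, and 10 of them (47.6%) had reads in BX2OFF with the reporter. Antisense 6323, the position with the most reads in the 6 libraries, had 27 reads in BX2theta and 30 in BX2*. Sense 1835, the sense position with the most reads in the 6 libraries, had 927 in BX2theta and 736 in BX2*. Sense 8883 had 51 reads in BX2theta and 11 in BX2*. The active libraries are 1 per genotype, were tabulated for 18–29 nt reads and carry another mapping mark, and these counts are a description with no test.

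The length of the reads was centred between 25 and 26 nt at both temperatures. The most frequent length of sense reads was 25, 25 and 24 nt at 29°C, against 25, 26 and 25 nt at 25°C. For antisense reads it was 26 nt in all 3 libraries at 29°C, against 26, 25 and 25 nt at 25°C. Sense reads had a mean length of 25.3 ± 0.28 nt at 29°C, against 25.3 ± 0.468 nt at 25°C (SD, n = 3 each; exact permutation test, p = 1). Antisense reads had a mean length of 25.6 ± 0.201 nt at 29°C, against 25.6 ± 0.329 nt at 25°C (SD, n = 3 each; exact permutation test, p = 1). The deposited length table of these libraries holds 23–29 nt only, so 21 nt siRNAs were not analysed here.

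**Figure D4:**
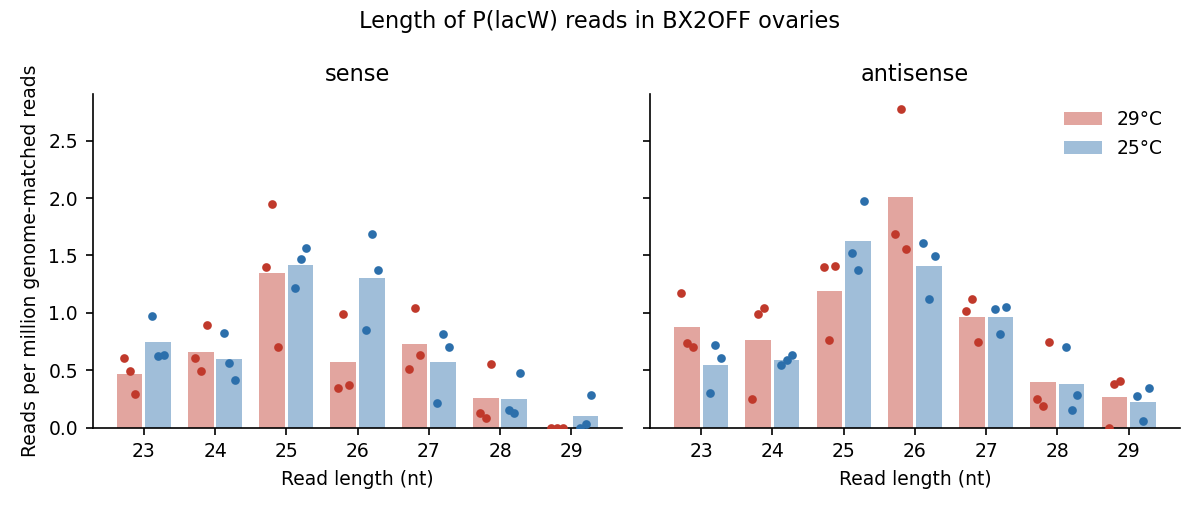
Length of P(lacW) reads in BX2OFF ovaries, sense on the left and antisense on the right, in reads per 1000000 genome-matched reads. Bars are means of 3 libraries (29°C left, 25°C right at each length) and points are libraries. The 26 nt bars stand apart in opposite directions on the strands, 0.569 against 1.30 rpm for sense and 2.005 against 1.41 rpm for antisense reads, with overlapping points.

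Of the 14 classes of length and strand, limma called none (0% at an adjusted p under 0.05, lowest adjusted p = 0.381, 1 class with an unadjusted p under 0.05), and the median log2 fold change over the classes was -0.03. The class with the lowest p was the 26 nt sense class, with 11, 36 and 10 reads at 29°C against 28, 54 and 43 at 25°C. Its level was 0.569 ± 0.362 rpm at 29°C, against 1.30 ± 0.422 rpm at 25°C (SD, n = 3 each), a log2 fold change of -1.15 ± 0.49 (SE). One library of 29°C overlapped the 25°C group. On the antisense strand the 26 nt class had 53, 101 and 42 reads at 29°C against 53, 36 and 47 at 25°C, a log2 fold change of 0.45 ± 0.47 (SE), and its groups overlapped. The groups did not overlap in 1 of the 14 classes (7.14%), the 23 nt sense class, with 19, 18 and 8 reads at 29°C against 32, 20 and 20 at 25°C. Sense reads of 29 nt were absent in all libraries at 29°C, and numbered 0, 1 and 9 at 25°C.

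**Figure D5:**
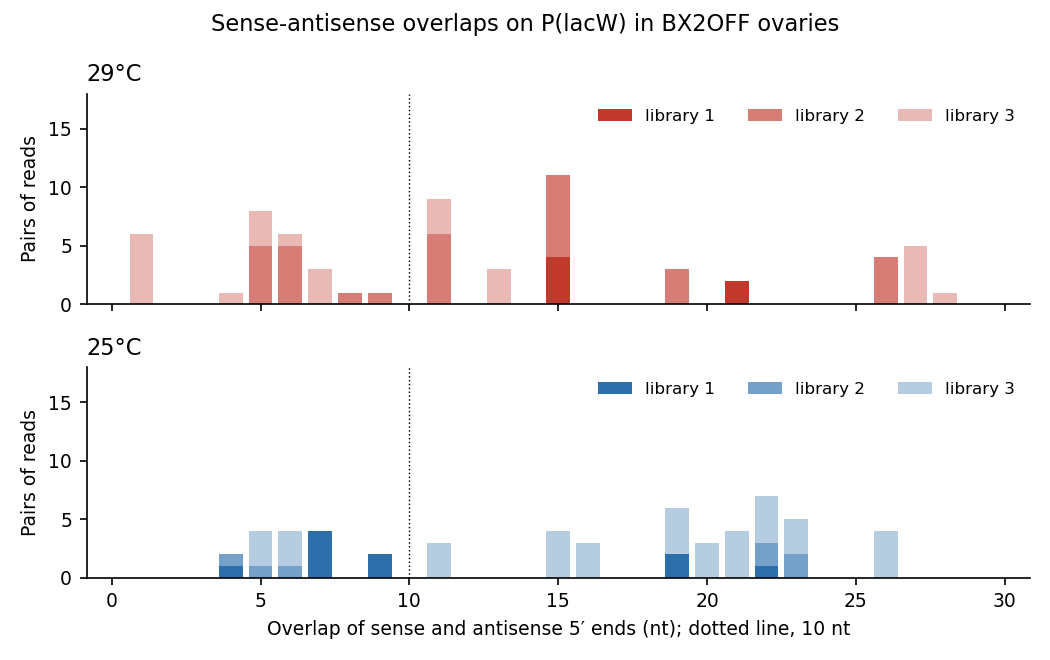
Pairs of sense and antisense reads of P(lacW) by the overlap of their 5′ ends, from 1 to 29 nt, at 29°C (top) and 25°C (bottom). Bars are stacked by library, each pair of positions has the smaller of its 2 numbers of reads, and the dotted line marks 10 nt, where no library has a pair.

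Sense and antisense reads seldom overlapped. In each library, every sense position was set against every antisense position that it overlaps by 1 to 29 nt at the 5′ ends, and each pair of positions was given the smaller of its 2 numbers of reads. In all there were 6, 32 and 26 pairs of reads at 29°C, against 10, 7 and 38 at 25°C. These came from 2, 11 and 10 pairs of positions at 29°C, against 5, 5 and 11 at 25°C. At the ping-pong overlap of 10 nt there was no pair in any of the 6 libraries. A count of 0 allows up to 3 pairs, which is more than the mean of all overlaps within each library, 0.207 to 1.31 pairs, so that within a library a lack of pairs at 10 nt was not detectable. Over the 6 libraries together the mean was 4.10 pairs of reads per overlap, above the limit of 3. Counted by position, where stacks do not add, 44 pairs of positions gave a mean of 1.52 per overlap, below it.

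With the libraries of a temperature added up, the most pairs were at 15 nt at 29°C (11 pairs) and at 22 nt at 25°C (7 pairs). An overlap of 15 nt had the most pairs over all 6 libraries (15 pairs), from 2 libraries of 29°C and 1 of 25°C. At 22 nt there were 1, 2 and 4 pairs in the libraries of 25°C and none at 29°C. It was the only overlap of the 29 at which the counts of the groups did not overlap. Counts of 1 and 2 pairs lie below the 3 that a count of 0 allows, and the difference was not tested. The z-score at 10 nt, which is the number of pairs there minus the mean over 29 overlaps, divided by the SD over them, averaged -0.438 ± 0.161 at 29°C, against -0.519 ± 0.205 at 25°C (SD, n = 3 each). With 0 pairs at 10 nt in every library, these values are set by the other overlaps and do not compare the temperatures at 10 nt. When the 5′ ends of the 3 libraries of a temperature were put together before pairing, 3 pairs of reads on 1 pair of positions overlapped by 10 nt at 29°C and none at 25°C. All 6 libraries together gave 10 pairs of reads at 10 nt on 4 pairs of positions, and 20 of the other overlaps had more. In BX2theta and BX2*, 4205 and 2149 pairs of 18–29 nt reads lay at 10 nt, more than at any other overlap in both libraries. The means over the 29 overlaps there were 3658.5 and 1816.6 pairs, so most of the pairs at 10 nt are matched by an average overlap. In BX2OFF with the reporter 11 pairs lay at 10 nt, against a mean of 10.6, with 14 other overlaps above it.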

How the data were processed

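Small RNA sequencing reads of P(lacW) in 6 BX2OFF libraries (3 at 29°C, 3 at 25°C) were analysed from the deposited tables of 5′ positions and read lengths. According to the methods and the submitters' processing notes, the authors aligned reads with Bowtie (Bowtie2 2.0.3 in the notes) to the genome and to P(lacW) with at most 1 mismatch. The deposited values are a score: 23–29 nt reads, negative for antisense, that the authors multiplied by the smallest genome-matched total (26932299) over the library's own. Whole reads were recovered by dividing by that factor (100% of values within 0.02 reads of a whole number, or within 0.02% above 100 reads), and levels were computed as rpm of the library totals in the study's annotation, read by their digits because some commas there are misplaced. For position maps the methods name reads that align uniquely, whereas the row names of these tables carry the mark "mul", which the sources used here do not explain. Row names of the BX2OFF library with the reporter and of both active libraries carry "uni" instead. Comparisons with those libraries may therefore set unlike mapping side by side. The design assumed values in rpm, and its tests were kept.

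Levels, shares, lengths and overlaps were tested over libraries by the exact permutation of their labels, two-sided, on the difference in means. limma 3.58.1 was run on log2(rpm + 0.1) over 14 classes of length and strand, 22 bins of 1000 bp and strand, and 32 positions with at least 10 reads, with Benjamini-Hochberg adjustment at 0.05. These steps were tried on simulated data. How well limma finds or falsely calls changes at the few, stacked reads per position found here was not tested. Positions were named by a rule: reads in at least 5 libraries, the most abundant of a strand in a library, or the lowest p. Some examples below these limits, the sites and the neighbours were chosen after their values were seen. The comparison and its lists were chosen with earlier results of these data known. Scaling to miRNA, a pseudocount of 1, other read lengths, bins and pair counts, and leaving out each library were tried. The 42AB tables were not used here. Software was R 4.3.3 and Python 3.11.15 (pandas 2.3.3, numpy 2.4.6, matplotlib 3.10.9, scipy 1.17.1).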

Additional observations from a re-analysis of the deposited data

How the results depend on the processing

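Among the values computed under alternatives, 144 kept their direction and their side of the threshold, 17 reversed and 4 passed a threshold that they had not passed. Of all these, 6 were added after seeing the data. All 4 passes concern sense 8883, without the limit on reads or without 29°C library 1. Each of these settings was counted both for the position and for the number of positions called. Numbers of called features have no direction, and those that stayed at 0 were counted among the 144. The exact permutation test cannot give a p below 0.1 with so few libraries. For the values that it tested, the side of the threshold was therefore fixed in advance, and only the direction could change. The level difference of -0.26 rpm became 0.338 with scaling to 1000000 miRNA reads. The difference in the share of the part shared with the reporter, -2.92 percentage points, became 0.91 with each position counted once. Leaving out each library in turn gave the level difference as -1.03 to 0.295 rpm, the sense mean length as -0.23 to 0.225 nt (main 0.023), the antisense mean length as -0.235 to 0.0941 nt (main -0.0701) and the z-score difference at 10 nt as -0.0363 to 0.149 (main 0.0817), where all libraries had 0 pairs at that overlap. The log2 fold change ranged from -0.40 to 0.55 for antisense 6323, from -0.071 to 0.70 for antisense 7620 and from -0.26 to 0.72 for sense 1835. Called positions ranged from 0 to 1, the 1 being sense 8883 without 29°C library 1 (log2 fold change 1.80, adjusted p = 0.0198), and without the limit on reads 1 position, again sense 8883 (1.71, adjusted p = 0.0295), was called by limma. The sense level difference kept its sign (-1.48 to -0.68 rpm), as did the antisense level (0.253 to 1.04 rpm) and the antisense share (5.46 to 10.9 percentage points). No paired analysis was possible because the labels give the libraries of the temperatures no shared replicate numbers. Few reads per library and their stacks limit all of these values.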

Other observations

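Other sites joined from neighbouring positions recurred as well. The antisense site from 6529 to 6538 had 1, 17 and 9 reads at 29°C, against 5, 0 and 5 at 25°C, spread over 7 positions. The antisense site from 4788 to 4791 had 5, 12 and 0 reads at 29°C, against 1, 4 and 5 at 25°C. The sense site from 8766 to 8767 had 8, 0 and 0 reads at 29°C, against 9, 4 and 5 at 25°C, and in the active lines its second position had 857 reads in BX2theta and 588 in BX2*. These sites were picked after their values were seen and carry no test.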
